A study of Arabidopsis thaliana with 6 samples.

Results

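Late embryogenesis abundant (LEA) protein genes were followed in germinating seeds of Arabidopsis thaliana, in the scl30a-1 mutant line and in the wild type (WT). The family was taken as 51 listed loci out of 33602 in the deposited table: annotated members of the groups LEA_1 to LEA_5, seed maturation proteins (SMP), dehydrins, AtM proteins and the small PvLEA18 group, together with RD29A and RD29B. Hydroxyproline-rich glycoproteins, some of which carry LEA in their annotation, were left out. Members were chosen by annotation and not by their level, but with earlier results of these data known. The 2 groups were scl30a-1 seeds and Col-0 seeds, both of the Columbia background, both stratified in the cold (3 days) and then held in continuous white light for 18 h. Each was represented by 3 poly(A) RNA libraries, which the study calls biological triplicates without saying what separated them, so p-values measure the spread between these samples. The mutant was a single line, and its lesion is not given in the sources used here. The source is labelled germinating seed, while the extraction protocol speaks of whole seedlings.

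LEA proteins are very hydrophilic proteins that build up in the embryo as a seed matures and dries, and are thought to protect other proteins and membranes from loss of water. Some members are instead induced in leaves and roots by drought, cold or the hormone abscisic acid (ABA). In seeds, many LEA genes are switched on by ABA through basic leucine zipper factors such as ABI5, which bind ABA-responsive elements with the core ACGTG, and by B3 factors such as ABI3, which bind RY repeats. Their transcripts are stored in the dry seed and decline during germination. SCL30a belongs to the SR (serine- and arginine-rich) proteins, which act in splicing of precursor mRNA.

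The promoters of 8 members are shown here as examples that differ in ABA-responsive elements and in response to the genotype. They do not span the family. No member with 1 ACGTG site is shown, although 5 of the 11 tested members not called higher hold 1. Neither member called lower is shown. Each is the 250 bases before the start of the first-numbered transcript model in RefSeq, 5′ to 3′ on the strand of the gene, on the TAIR10.1 assembly. Capitals mark matches on either strand to ACGTG, to its palindromic form CACGTG (the G-box), to the RY repeat CATGCA and to CCGAC, the core of the dehydration-responsive element that DREB factors bind. The first 4 are from genes that were higher in scl30a-1 and hold 2 or more ACGTG sites. LTI78 was higher with no ACGTG site but 3 CCGAC sites in this window, and M17 was higher with none of the 4 motifs in it. Sites outside the window were not searched. COR47, whose capitals mark an RY repeat, and SAG21 did not pass the test.
AT2G42560 (chr2:17716913-17717162, - strand): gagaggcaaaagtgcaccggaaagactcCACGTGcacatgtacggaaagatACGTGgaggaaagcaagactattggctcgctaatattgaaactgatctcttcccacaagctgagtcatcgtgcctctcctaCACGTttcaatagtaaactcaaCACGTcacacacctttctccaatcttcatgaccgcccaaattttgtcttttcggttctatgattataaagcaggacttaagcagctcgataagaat
RAB18 (chr5:26519448-26519697, - strand): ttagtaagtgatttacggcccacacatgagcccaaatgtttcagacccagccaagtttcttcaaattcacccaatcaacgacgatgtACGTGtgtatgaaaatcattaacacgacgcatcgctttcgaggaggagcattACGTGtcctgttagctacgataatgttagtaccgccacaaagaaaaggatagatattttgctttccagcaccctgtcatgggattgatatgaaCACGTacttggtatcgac
EM6 (chr2:16780369-16780618, - strand): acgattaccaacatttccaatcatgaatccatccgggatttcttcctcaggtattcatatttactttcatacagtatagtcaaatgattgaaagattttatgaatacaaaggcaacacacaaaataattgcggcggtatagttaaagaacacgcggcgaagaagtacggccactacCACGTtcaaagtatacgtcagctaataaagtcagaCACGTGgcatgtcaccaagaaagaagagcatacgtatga
LTI65 (chr5:21236771-21237020, + strand): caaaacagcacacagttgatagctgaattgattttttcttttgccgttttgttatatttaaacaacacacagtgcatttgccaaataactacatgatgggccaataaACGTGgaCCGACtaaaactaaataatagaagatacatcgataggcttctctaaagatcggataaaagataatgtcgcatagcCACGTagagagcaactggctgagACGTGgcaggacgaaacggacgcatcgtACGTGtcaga
LTI78 (chr5:21240467-21240716, + strand): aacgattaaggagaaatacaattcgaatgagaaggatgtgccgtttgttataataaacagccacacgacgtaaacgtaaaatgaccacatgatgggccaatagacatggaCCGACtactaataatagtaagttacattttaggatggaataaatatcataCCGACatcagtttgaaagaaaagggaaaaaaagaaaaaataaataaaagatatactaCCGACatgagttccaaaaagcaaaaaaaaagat
M17 (chr2:17206229-17206478, + strand): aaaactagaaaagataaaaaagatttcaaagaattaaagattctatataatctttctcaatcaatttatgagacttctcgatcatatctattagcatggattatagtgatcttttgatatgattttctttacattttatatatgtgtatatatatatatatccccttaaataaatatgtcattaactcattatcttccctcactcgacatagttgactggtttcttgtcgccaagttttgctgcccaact
COR47 (chr1:7086874-7087123, - strand): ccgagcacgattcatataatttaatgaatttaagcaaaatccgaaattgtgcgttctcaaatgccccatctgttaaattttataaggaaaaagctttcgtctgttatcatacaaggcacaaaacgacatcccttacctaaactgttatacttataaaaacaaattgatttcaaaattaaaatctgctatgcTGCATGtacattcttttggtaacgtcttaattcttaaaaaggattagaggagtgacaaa
SAG21 (chr4:1047085-1047334, - strand): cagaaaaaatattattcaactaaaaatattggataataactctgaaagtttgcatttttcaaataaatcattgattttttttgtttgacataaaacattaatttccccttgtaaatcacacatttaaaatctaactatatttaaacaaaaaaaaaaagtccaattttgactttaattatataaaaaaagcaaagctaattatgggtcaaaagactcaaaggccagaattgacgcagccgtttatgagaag

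SCL30a itself (AT3G13570) checked the labels. It had 5.59, 5.72 and 5.9 CPM (counts divided by the TMM-scaled library size) in libraries a, b and c of scl30a-1, against 96.4, 95.1 and 96.9 CPM in libraries a, b and c of WT, a log2 fold change of -4.07 (SE 0.0498, adjusted p = 4.45e-11, edgeR quasi-likelihood F test). Library totals were 77817191 to 85605647 counts in scl30a-1 and 70687361 to 84356746 counts in WT, so that 3 counts corresponded to 0.035 to 0.0424 CPM. The transcriptome differed widely between the genotypes: of 18736 genes tested, 7806 were called at an adjusted p under 0.05, which is 41.7%. Counts of genes called higher or lower below are to be read against the corresponding shares of all genes, 21.9% and 19.7%. Markers of the germinating seed were present in both genotypes. The summed level of 4 endosperm genes was 2288.9 to 2365.4 CPM in scl30a-1 and 1613.7 to 1708.7 CPM in WT, that of 6 embryo genes was 286.9 to 301.4 CPM in scl30a-1 and 303.5 to 319.8 CPM in WT, and 4 genes of the developing seed coat had 0 counts in every library. The sums do not measure the amount of a tissue. EXPA2, not called, made up most of the endosperm sum. ATML1, called lower, made up most of the embryo sum, while STM, PLT1 and PLT2 lay above WT in every scl30a-1 library.

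Most of the family was higher in scl30a-1. Of the 51 members, 46 passed the filter on low counts, and 35 of these (76.1%) were higher, against 21.9% of all genes tested that were called higher. Only LEA3 (AT1G02820) and AT2G03850 were lower, where the share of all genes called lower was 19.7%, and 9 members did not pass the test. A rise of at least 2-fold was met by 34 members, which is 73.9% of those tested, against 3.16% of all genes. These 34 made up 5.74% of the 592 genes that rose by that much, while members were 0.246% of the genes tested. The median log2 fold change over the 46 members was 1.77, with a range of -1.08 to 2.77, and that of all genes tested was 0.00274. All 3 scl30a-1 libraries lay above all 3 WT libraries for 35 members (26.9% of all genes tested did so), and below them for 2 members (25.2% of all genes). AT5G53260 had 6 counts in WT library c, under the minimum of 10, and so passed the filter through its scl30a-1 libraries.

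**Figure D1:**
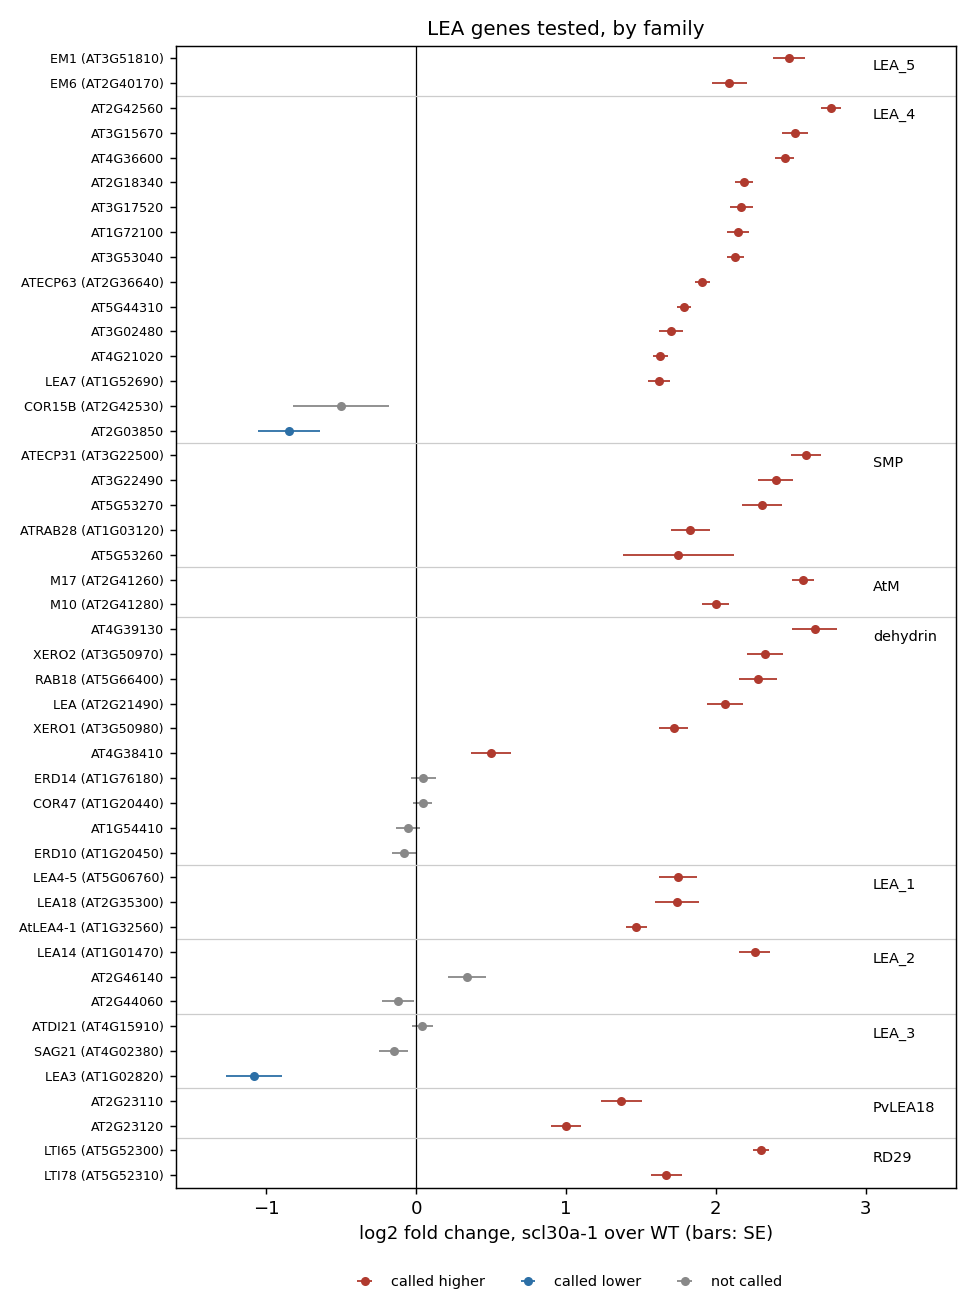
Log2 fold change of scl30a-1 over WT (horizontal axis) for each of the 46 LEA genes tested, grouped by family from top to bottom, with bars of 1 SE and colours for genes called higher, called lower and not called. Most points sit to the right of 1, while 4 dehydrins, 2 LEA_2 genes and 2 LEA_3 genes lie close to 0 and LEA3, AT2G03850 and the uncalled COR15B lie to the left.

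On a scale that corrects for transcript length (CPM per kilobase of the first-numbered transcript model), the family took a larger part of the scl30a-1 transcriptome. Summed over all members, it reached 9392.7, 10246.3 and 8636.1 CPM per kilobase in scl30a-1, against 2912.4, 2587.7 and 2368.0 CPM per kilobase in WT, with libraries in the order a, b and c here and throughout. As a share of the sum over all genes of known length on this scale, it was 1.55%, 1.58% and 1.43% in scl30a-1, against 0.482%, 0.433% and 0.412% in WT. Without correction for length, members held 0.958%, 0.994% and 0.886% of all counts in scl30a-1, against 0.299%, 0.268% and 0.252% in WT. In these samples, more cells that hold a transcript and more of it per cell cannot be told apart.

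The Em proteins of group LEA_5, encoded by EM1 (AT3G51810, chr3:19214722-19215831) and EM6 (AT2G40170, chr2:16779552-16780368), are classic markers of the mature embryo and known targets of ABI5. EM1 had 233.6, 279.8 and 232.5 CPM in scl30a-1, against 50.9, 43.7 and 38.6 CPM in WT. Its lowest scl30a-1 library was well above its highest WT library, and the fold was 5.6 (log2 2.49, SE 0.106, adjusted p = 7.49e-08, edgeR). EM6 had 198.3, 214.0 and 172.1 CPM in scl30a-1, against 54.3, 43.3 and 39.8 CPM in WT, and was 4.25-fold higher (log2 2.09, SE 0.115, adjusted p = 4.21e-07, edgeR). On the length-corrected scale the means of the 2 genes in scl30a-1 differed by less than their SD, at 268.8 ± 29.2 CPM per kilobase for EM1 and 270.5 ± 29.4 for EM6. In WT the mean of EM1 was 48.0 ± 6.66 CPM per kilobase and that of EM6 was 63.6 ± 10.5 (SD, n = 3 each).

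LEA_4 is the largest group listed, with 16 members whose proteins carry repeats that fold into amphipathic helices on drying. Of 14 tested, 12 were higher in scl30a-1, 1 was lower and 1 was not called, and the median log2 fold change was 2.02. Its most abundant member, AT3G15670 (chr3:5309886-5310988), had 901.9, 956.9 and 845.0 CPM in scl30a-1, against 177.3, 147.6 and 143.3 CPM in WT. The libraries of the 2 genotypes were far apart, and the fold was 5.78 (log2 2.53, SE 0.0882, adjusted p = 2.03e-08, edgeR). AT2G42560 (chr2:17714638-17716912) showed the largest rise of the whole family. It had 276.0, 244.3 and 245.3 CPM in scl30a-1, against 39.5, 35.8 and 36.7 CPM in WT, which is 6.84-fold (log2 2.77, SE 0.0661, adjusted p = 3.46e-09, edgeR). Its promoter, the first shown, holds 4 ACGTG sites, the most upstream of which is a G-box.

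The other 10 LEA_4 genes that rose did so within a narrow band of log2 fold changes, 1.62 for LEA7 (AT1G52690) to 2.46 for AT4G36600. They covered a wide range of levels. AT3G17520 averaged 572.7 ± 43.1 CPM per kilobase in scl30a-1 and 127.3 ± 9.64 in WT, while AT2G18340 averaged 11.4 ± 0.186 CPM per kilobase in scl30a-1 and 2.5 ± 0.0694 in WT (SD, n = 3 each), with log2 fold changes of 2.17 and 2.19. ATECP63 (AT2G36640), related to an embryogenic cell protein of carrot, had a log2 fold change of 1.91.

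The exceptions in LEA_4 were genes with few transcripts here. AT2G03850 (chr2:1175581-1176802) had 1.04, 1.14 and 1.06 CPM in scl30a-1, against 1.67, 2.66 and 1.54 CPM in WT. All scl30a-1 libraries lay below all WT libraries, and the log2 fold change was -0.85 (SE 0.205, adjusted p = 0.00801, edgeR). WT library b was the highest, and without it the log2 fold change was -0.567. COR15A and COR15B encode chloroplast proteins that build up in leaves in the cold. COR15A (AT2G42540) had 4, 5 and 0 counts in scl30a-1, against 1, 3 and 2 counts in WT, and was under the filter. COR15B (AT2G42530) was at 0.105 to 0.234 CPM in scl30a-1 and 0.207 to 0.274 CPM in WT, overlapping ranges, with a log2 fold change of -0.50 (SE 0.319) that was not called. COR15B shares 27.95% of its 36-base words with an overlapping gene, so its reads may be partly those of the neighbour. The remaining LEA_4 member, AT2G03740, stayed at or below 0.0345 CPM in every library.

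**Figure D2:**
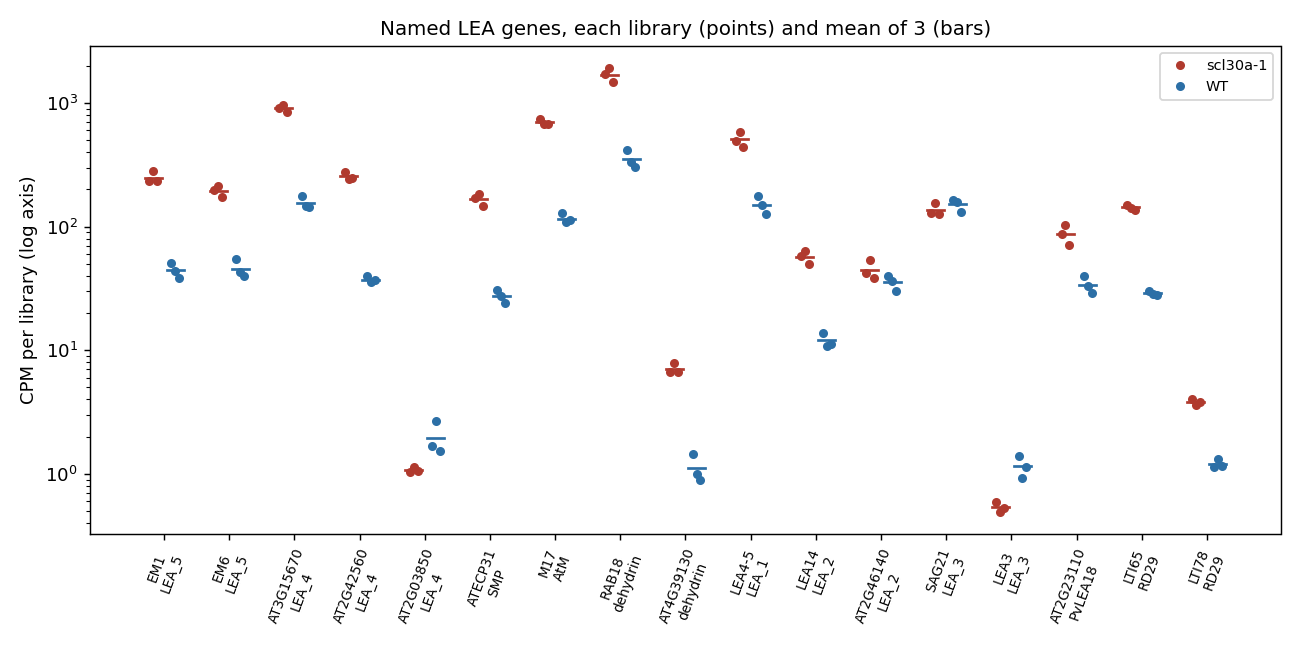
CPM on a log axis for 17 LEA genes, with 1 point for each library, short bars for the mean of 3 libraries, and scl30a-1 (red) left of WT (blue) for each gene. The red and blue points are fully apart for all genes shown except AT2G46140 and SAG21, and the red points are the lower ones only for AT2G03850 and LEA3 among the genes that separate.

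Seed maturation proteins are named for their accumulation in ripening seeds. All 5 SMP genes tested rose, with a median log2 fold change of 2.31, and the sixth, AT5G27980, had 1 count at most in any library. ATECP31 (AT3G22500, chr3:7971625-7972907) was the most abundant and changed the most. It had 169.2, 182.8 and 146.8 CPM in scl30a-1, against 30.6, 27.3 and 24.2 CPM in WT, a 6.08-fold difference with no overlap (log2 2.60, SE 0.0995, adjusted p = 3.3e-08, edgeR). ATRAB28 (AT1G03120), an ABA-responsive gene, rose by a log2 fold change of 1.83. AT5G53260 and AT5G53270 lie 596 bases apart and share 18.15% and 10.75% of their 36-base words, mostly with each other, so reads may have been split between them. AT5G53260 had the largest SE among the risers, at 0.464 to 0.608 CPM in scl30a-1 and 0.069 to 0.294 CPM in WT (log2 1.75, SE 0.37, adjusted p = 0.00385, edgeR). Its log2 fold change was 2.44 without WT library a and 1.34 without WT library c.

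Both AtM genes rose as well. M17 (AT2G41260, chr2:17206452-17207698) had 735.5, 681.1 and 670.6 CPM in scl30a-1, against 127.7, 108.5 and 112.5 CPM in WT. The fold was 5.99 (log2 2.58, SE 0.073, adjusted p = 7.25e-09, edgeR). The 250-base window before its first-numbered model holds none of the motifs searched. Its mean of 735.4 ± 36.8 CPM per kilobase in scl30a-1 ranked 96 among 26482 genes of known length, while its mean of 122.9 ± 10.7 in WT ranked 783 (SD, n = 3 each). These levels and ranks rest on a model of 946 nt and would differ with another transcript length. M10 (AT2G41280), which lies 1998 bases from M17 with another gene between them, rose by a log2 fold change of 2.0.

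Dehydrins bind water and membranes through lysine-rich K segments, and some work mainly in seeds while others are known from stressed leaves and roots. The group divided here: 6 of its 10 genes, all tested, were higher in scl30a-1 and 4 were not called. RAB18 (AT5G66400, chr5:26518277-26519447), a gene long used as a reporter of ABA response, was the most abundant LEA transcript in both genotypes. It had 1706.3, 1911.2 and 1471.0 CPM in scl30a-1, against 415.5, 329.9 and 303.2 CPM in WT, a 4.85-fold difference (log2 2.28, SE 0.127, adjusted p = 4.82e-07, edgeR). At 1586.7 ± 206.1 CPM per kilobase in scl30a-1 it ranked 14 among the genes of known length, and at 326.9 ± 54.9 in WT it ranked 257 (SD, n = 3 each). AT4G39130 had the largest rise among dehydrins from a low level, with 6.65, 7.82 and 6.63 CPM in scl30a-1, against 1.46, 1.0 and 0.897 CPM in WT (log2 2.66, SE 0.152, adjusted p = 5.51e-07, edgeR).

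The seed dehydrin LEA (AT2G21490) rose by a log2 fold change of 2.06, XERO2 (also called LTI30, a cold-inducible gene) by 2.33 and its neighbour XERO1 by 1.72. AT4G38410 was the only member called higher by less than 2-fold, with a log2 fold change of 0.50 (SE 0.132, adjusted p = 0.0123, edgeR). By contrast COR47 and ERD10, which lie next to each other on chromosome 1, and ERD14 are acidic dehydrins induced by cold and dehydration in vegetative tissue. COR47 had 147.1, 168.7 and 150.8 CPM in scl30a-1, against 157.3, 153.2 and 142.0 CPM in WT, and the ranges overlapped. Log2 fold changes were 0.04 for COR47 (SE 0.0636), -0.08 for ERD10 (SE 0.081), 0.05 for ERD14 (SE 0.0857) and -0.05 for AT1G54410 (SE 0.0815), a histidine-rich dehydrin known as HIRD11. The genes without a call were still transcribed in the seed. COR47 averaged 67.0 ± 4.98 CPM per kilobase in scl30a-1 and 65.0 ± 3.42 in WT, HIRD11 averaged 51.7 ± 4.85 CPM per kilobase in scl30a-1 and 53.6 ± 5.07 in WT (SD, n = 3 each), where the COR47 level rests on a long model of 2320 nt, and ERD14 and ERD10 were lower than these in both genotypes.

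LEA_1 genes all rose. LEA4-5 (AT5G06760, chr5:2089445-2090430), which contributes to tolerance of water deficit, had 492.3, 586.4 and 442.7 CPM in scl30a-1, against 175.8, 150.0 and 126.3 CPM in WT (3.37-fold, log2 1.75, SE 0.127, adjusted p = 3.41e-06, edgeR). No library of one genotype reached the range of the other. LEA18 (AT2G35300) rose by a log2 fold change of 1.74 and AtLEA4-1 (AT1G32560) by 1.47.

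The LEA_2 group, whose proteins are more hydrophobic and more folded than other LEA proteins, was mixed. LEA14 (AT1G01470, chr1:171525-172948) had 57.5, 63.7 and 50.2 CPM in scl30a-1, against 13.7, 10.9 and 11.2 CPM in WT, a 4.78-fold difference without overlap (log2 2.26, SE 0.103, adjusted p = 1.2e-07, edgeR). AT2G46140 had 42.0, 54.0 and 38.2 CPM in scl30a-1, against 39.6, 36.2 and 30.1 CPM in WT. Its groups overlapped, and the log2 fold change of 0.34 (SE 0.127, adjusted p = 0.0533, edgeR) was not called. Without WT library a the value was 0.433 (adjusted p = 0.0356, edgeR) and without scl30a-1 library c it was 0.435 (adjusted p = 0.0274, edgeR), both called. AT2G44060 had a log2 fold change of -0.12 (SE 0.107) and was not called.

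LEA_3 was the only group with no member called higher. SAG21 (AT4G02380, chr4:1046042-1047105), a mitochondrial protein gene known from leaf senescence and oxidative stress, had 128.0, 155.6 and 125.6 CPM in scl30a-1, against 163.6, 159.4 and 131.4 CPM in WT. The ranges overlapped and the log2 fold change was -0.15 (SE 0.0983, adjusted p = 0.247, edgeR). Without WT library c it was -0.256 (adjusted p = 0.0388, edgeR) and without scl30a-1 library b it was -0.255 (adjusted p = 0.0234, edgeR). SAG21 shares 15.97% of its 36-base words with another locus. LEA3 (AT1G02820, chr1:623656-624567) had 0.597, 0.494 and 0.528 CPM in scl30a-1, against 1.4, 0.926 and 1.13 CPM in WT, and fell by 1.08 on the log2 scale (SE 0.187, adjusted p = 0.00126, edgeR). All of its scl30a-1 libraries lay below all of its WT libraries. The drought-induced gene ATDI21 (AT4G15910) was not called, with a log2 fold change of 0.04 (SE 0.0673), and AT3G53770 had 0 counts in every library. On the length-corrected scale SAG21 ranked 19 among LEA transcripts in scl30a-1 and 3 in WT.

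Both PvLEA18 genes tested rose by smaller amounts, and AT2G33690 had 0 counts in every library. AT2G23110 (chr2:9840456-9841366) had 87.0, 103.1 and 71.0 CPM in scl30a-1, against 39.6, 32.9 and 28.8 CPM in WT (2.58-fold, log2 1.37, SE 0.138, adjusted p = 3.78e-05, edgeR). Its neighbour AT2G23120, 475 bases away, had a log2 fold change of 1.0 and shares 14.38% of its 36-base words with another locus.

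RD29B and RD29A, listed as LTI65 and LTI78, are stress genes that lie 1185 bases apart on chromosome 5. RD29B is known as mainly ABA-responsive, and RD29A as responsive to cold and drought through dehydration-responsive elements. LTI65 (AT5G52300, chr5:21237021-21239531) had 149.4, 142.6 and 136.6 CPM in scl30a-1, against 30.3, 28.4 and 28.1 CPM in WT (4.94-fold, log2 2.30, SE 0.0543, adjusted p = 3.46e-09, edgeR). LTI78 (AT5G52310, chr5:21240717-21243644) had 4.01, 3.64 and 3.84 CPM in scl30a-1, against 1.13, 1.32 and 1.16 CPM in WT (3.18-fold, log2 1.67, SE 0.103, adjusted p = 9.79e-07, edgeR). Both were therefore higher in every scl30a-1 library. Their levels were far apart, at 65.8 ± 2.94 CPM per kilobase for LTI65 and 1.44 ± 0.0698 for LTI78 in scl30a-1, and 13.3 ± 0.548 CPM per kilobase for LTI65 and 0.452 ± 0.0373 for LTI78 in WT (SD, n = 3 each). The LTI65 promoter holds 4 ACGTG sites and 1 CCGAC site, and that of LTI78 holds no ACGTG site and 3 CCGAC sites.

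**Figure D3:**
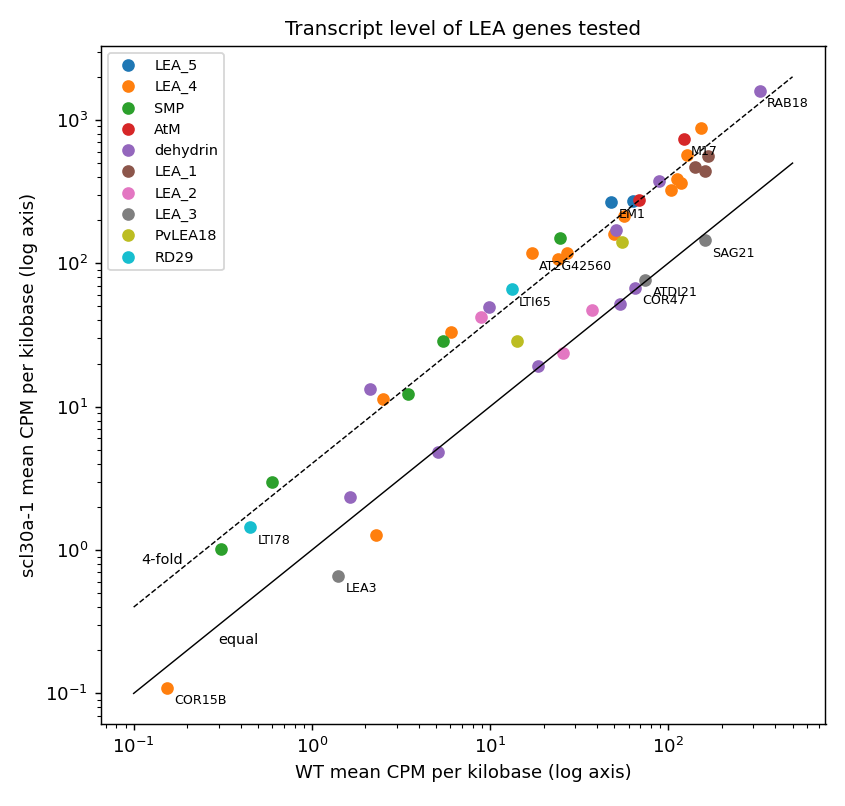
Mean CPM per kilobase of each LEA gene tested in scl30a-1 (vertical log axis) against WT (horizontal log axis), coloured by family, with a solid line at equal levels and a dashed line at 4-fold. Genes near the dashed line include LTI78 at 0.452 CPM per kilobase in WT and RAB18 at 326.9, and SAG21, COR47 and ATDI21 sit near the solid line at WT levels of 65.0 or more.

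The level in WT did not separate the genes that rose from those that did not. Members were split at the median WT level of 32.2 CPM per kilobase, and no test was made because WT values enter both the split and the fold change. Of the 23 members at or above it, 18 were higher, 0 lower and 5 not called, with a median log2 fold change of 1.74. Below it, 17 were higher, 2 lower and 4 not called, with a median of 2.13. The members next to the boundary were AT2G46140 above it at 37.2 CPM per kilobase in WT, not called, and AT3G53040 below it at 27.2, called higher. A division at 10 CPM per kilobase gave 24 higher and 7 not called among 31 members at or above it (median 1.75), and 11 higher, 2 lower and 2 not called among 15 below it (median 1.83).

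Most neighbouring members had the same call, which was described and not tested. Since 76.1% of the members tested were called higher, pairs at any distance would often share a call. Of the pairs within 10 kb, XERO2 and XERO1 (313 bases apart), LTI65 and LTI78, AT3G22490 and ATECP31 (781 bases), M17 and M10, AT5G53260 and AT5G53270, and AT2G23110 and AT2G23120 were each both higher. COR47 and ERD10 (1029 bases apart) were both not called. COR15A and COR15B lie 7 bases apart. AT2G42560, the member with the largest rise, is 2307 bases from COR15A, which had at most 5 counts in any library, and 4204 bases from COR15B, which was not called.

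**Figure D4:**
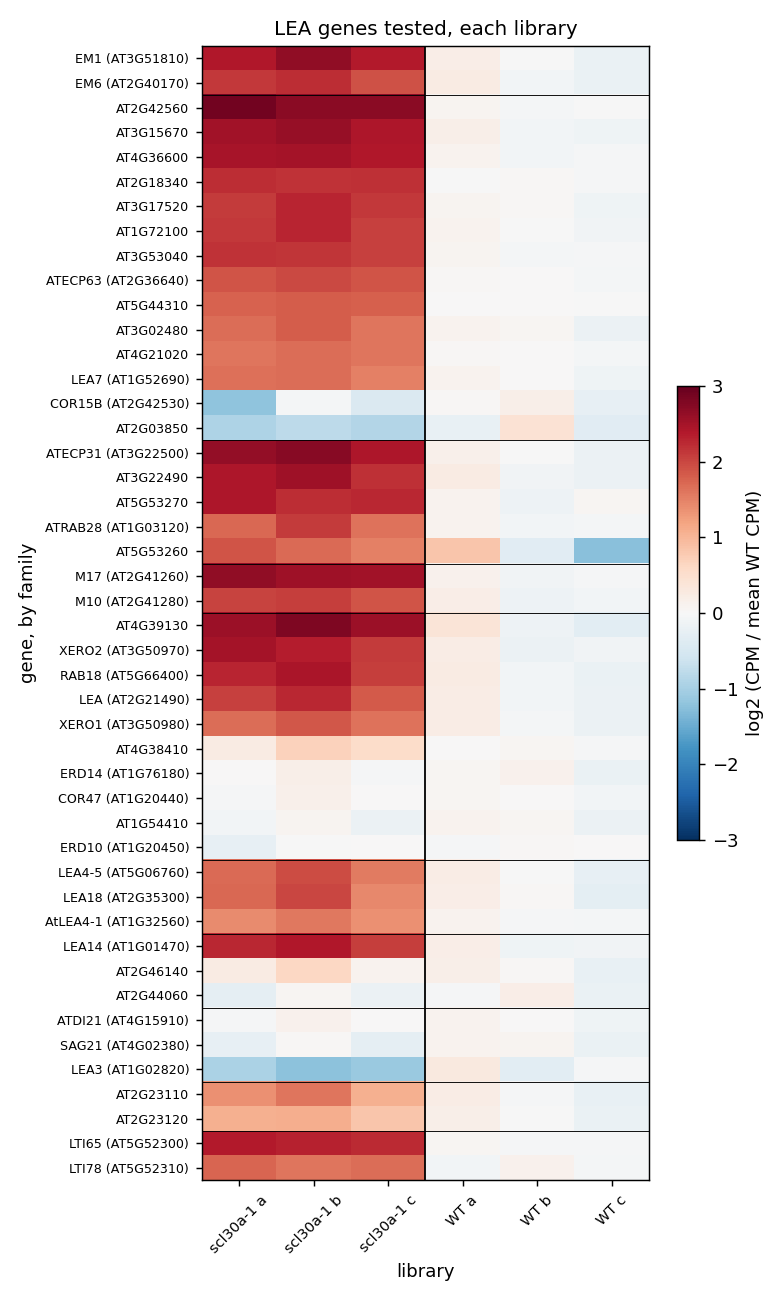
Log2 of CPM over the mean WT CPM for each LEA gene tested (rows, by family) in each library (columns, the 3 scl30a-1 libraries left of the 3 WT libraries), from blue (lower) to red (higher). The scl30a-1 columns are red for the 35 genes called higher, and those of AT2G46140, not called, also lie above its WT mean. Among the scl30a-1 columns library b is often the darkest, and WT library a is often slightly redder than the other WT libraries.

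Within each genotype most risers had the same order of libraries. Among the 35 genes called higher, scl30a-1 library b was the highest of its genotype for 26 and library c the lowest for 26, and in all genes tested library b was the highest for 41.5% and library c the lowest for 30.5%. WT library a was the highest of its genotype for 31 of the 35 and library c the lowest for 25, where 31.2% of all genes had their highest WT value in library a and 38.8% their lowest in library c. These shifts were small beside the difference between genotypes. The median log2 deviation of the risers from their genotype's mean was 0.103 in scl30a-1 library b and 0.135 in WT library a.

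ACGTG was common in the promoters of the genes that rose. In the 250 bases before the start, counted on both strands with overlapping matches counted once, 29 of the 35 risers (82.9%) held at least 1 ACGTG site and 22 (62.9%) at least 2. The shares among all 18073 promoters of genes tested were 24.0% and 5.79%. Of the other 11 members tested, 5 held 1 site and none held 2. The G-box CACGTG, which contains ACGTG, was in 19 of the 35 risers (54.3%), 0 of the other 11 and 7.91% of all promoters of genes tested. Of the 5 members under the filter, 2 also held a G-box (AT2G03740 and COR15A). RY repeats were in 7 risers (20.0%), 1 of the other 11 and 7.34% of all, and CCGAC was in 16 risers (45.7%), 2 of the other 11 and 13.8% of all. A match is a run of letters and not a shown binding site.

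**Figure D5:**
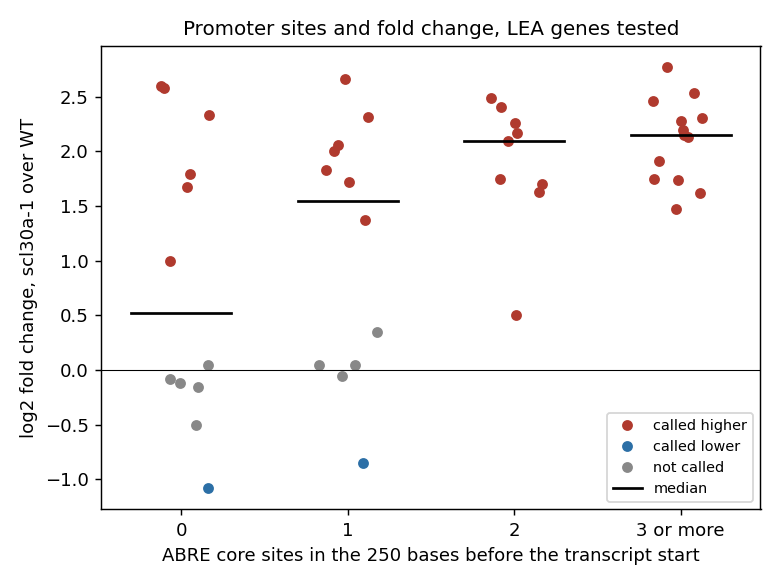
Log2 fold change of scl30a-1 over WT (vertical axis) for each LEA gene tested, by the number of ACGTG sites, the core of the ABA-responsive element (ABRE), in the 250 bases before its transcript start, with bars at the median. All 22 genes with 2 or more sites were called higher, and genes with 0 or 1 site fall on both sides of 0.

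Arranged by the number of ACGTG sites, 6 of 12 members with no site were higher (median log2 fold change 0.524), 7 of 12 with 1 site (median 1.55), 9 of 9 with 2 sites (median 2.09) and 13 of 13 with 3 or more sites (median 2.15). Of all genes tested, 21.9% were called higher. The share of all genes called higher at each number of sites was not worked out, so this order has no matching background. The 6 risers with no site were ATECP31, M17, XERO2, AT5G44310, LTI78 and AT2G23120, so a large rise also occurred in members without the motif in this window. The window depends on the transcript model. That of AT5G44310 (chr5:17849025-17849274) lies inside its gene span (17847781-17849536), and that of M17 runs past its outermost gene start. The windows of LEA7 and AT4G36600, called higher, of ERD14 and SAG21, not called, and of AT3G53770, under the filter, also run past theirs. Sites before those outer starts were therefore missed in whole or in part. The counts of sites were read from the assembly and did not depend on the expression values, but the members were listed as LEA genes, many of which are known for ABA response.

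Regulators that act on LEA promoters had a smaller median change than the LEA genes. Of 26 listed, 22 were tested, and 9 were higher (40.9%, against 21.9% of all genes), 4 lower (against 19.7% of all genes) and 9 not called, with a median log2 fold change of 0.108. ABI5, the ABA-response factor that binds Em promoters, had 138.1, 144.1 and 141.0 CPM in scl30a-1, against 78.1, 80.3 and 80.7 CPM in WT (log2 0.82, SE 0.0437, adjusted p = 3.25e-07, edgeR). ABI3 had 428.5, 392.0 and 445.5 CPM in scl30a-1, against 386.1, 376.7 and 420.7 CPM in WT. The ABI3 ranges overlapped and its log2 fold change was 0.10 (SE 0.0646, adjusted p = 0.257, edgeR). DPBF2 (bZIP67), a seed factor of the same class as ABI5, had 0.608, 0.611 and 0.709 CPM in scl30a-1, against 0.154, 0.144 and 0.15 CPM in WT (log2 2.10, SE 0.211, adjusted p = 3.52e-05, edgeR). It was the only listed regulator that rose by 2-fold or more. Its counts were low, at 52, 47 and 55 in scl30a-1 and 11, 11 and 13 in WT.

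DREB2B, a dehydration-response factor that binds CCGAC, had 15.2, 15.5 and 14.0 CPM in scl30a-1, against 9.29, 9.93 and 9.42 CPM in WT (log2 0.64, SE 0.0613, adjusted p = 2.42e-05, edgeR). FUS3, DPBF4 (EEL), ABF4, GBF4, BZIP10 and DREB2A were also called higher, with log2 fold changes of 0.25 for DPBF4 to 0.78 for FUS3. NFYB9 (LEC1), LEC2, ABF2 and ABF3 were called lower, with log2 fold changes of -0.31 for ABF2 and -0.96 for ABF3. NFYB9 had 7, 6 and 4 counts in scl30a-1, against 26, 23 and 21 counts in WT, and LEC2 had 11, 2 and 5 counts in scl30a-1, against 17, 15 and 24 counts in WT. Both passed the minimum of 10 counts through their WT libraries. The cold-response factors DREB1A, DREB1B and DREB1C were under the filter, with at most 0.104 CPM in any library, and ATBZIP53 had no value in the table.

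Among markers of other cell types and stages, calls in both directions were found only in the embryo list. Among 4 endosperm genes, EPR1 had 801.6, 645.1 and 726.0 CPM in scl30a-1, against 222.6, 190.8 and 271.9 CPM in WT (log2 1.66, adjusted p = 3.81e-06, edgeR), and MAN7 was higher by a log2 fold change of 0.51. MAN5 and EXPA2 were not called. Of 6 embryo genes, STM was higher (log2 0.81), ATML1 was lower (log2 -0.20) and 4 were not called. Of 5 photosynthesis genes of the seedling, 4 were tested and 3 were lower (against 19.7% of all genes). These were LHCA4 (log2 -0.74), LHCB1.3 (log2 -0.86) and LHCB4.1 (log2 -0.37). RBCS-1A was not called (log2 -0.12). It made up most of the summed level of the list, which was 426.8 to 543.4 CPM in scl30a-1 and 487.0 to 561.1 CPM in WT. The part of endosperm content or of the stage of germination in the LEA result was not tested.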

How the data were processed

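Poly(A) RNA libraries of 3 scl30a-1 and 3 WT samples were read from 1 deposited table. Per the file headers, the authors deposited raw counts per gene for each library, with no pooling. Their length-normalized columns were not used here, since a library with no sample number of its own was represented by 1 measure. The build was TAIR10, per the submitters' processing notes. The aligner, the filters and the use of strand are not given in the sources used here, so reads of overlapping genes cannot be told apart. Column names carry a genotype and a letter, which name the libraries here, and were mapped to a genotype only. No column belonged to another series.

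Of 33602 rows, 1213 had no value. The filter of edgeR (filterByExpr, minimum count 10) kept 18736 genes and removed 13653. Genotype was the sole factor in edgeR 4.0.16 (R 4.3.3): counts were TMM-scaled, fitted by quasi-likelihood with an F test, and p-values were adjusted by Benjamini-Hochberg across the 18736 genes. A gene was called where that value was under 0.05. CPM used TMM-scaled library sizes and compares 1 gene between libraries, and CPM per kilobase compares genes (26482 with a known length). The length is that of the first-numbered RefSeq model, so levels and ranks between genes depend on that choice. Floors of 3 counts cover counting error only. No 2 libraries agreed within sampling noise.

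Values in every library are given, within each family, for the most abundant member per kilobase and for the one with the largest absolute log2 fold change among those tested. They are also given for members called lower, EM1, EM6, RAB18, COR15A, RD29A, RD29B, ABI3, ABI5 and the 3 regulators called with the smallest p, and COR47 and EPR1 were added after their values were seen. The members and gene lists were chosen with earlier results of these data known. Coordinates, promoters and the 36-base words shared between transcripts came from RefSeq on TAIR10.1, looked up by locus. Promoter starts are those of the first-numbered transcript model, which can differ from the outermost end of the gene. Alternatives were DESeq2 size factors, no composition scaling, upper-quartile scaling, 2 other filters, DESeq2 1.42.0, a minimum of 2-fold, a block by letter and each library left out.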

Additional observations from a re-analysis of the deposited data

How the results depend on the processing

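All 35 members called higher and both called lower kept their call in all 13 alternative fits. With each library left out in turn, 37 to 38 members were called, 35 to 36 higher and 2 to 3 lower, the median log2 fold change of members was 1.70 to 1.88, and 5825 to 8075 of all genes were called. Requiring a fold change of at least 2 left 34 members higher and 1 lower (LEA3). Other scalings moved the median of all genes to -0.065 at most. Of the 9 members not called, 7 kept that in every fit. AT2G46140 was also called with no filter (adjusted p = 0.0306, edgeR) and with DESeq2 (adjusted p = 0.0211), and ranged from 0.000867 to 0.162 in adjusted p over its alternatives. SAG21 ranged from 0.0234 to 0.544. With the letter of the column name as a replicate block, 39 members were called (36 higher, 3 lower) and 8940 of all genes. Whether the letters pair the samples was not settled. Deviations from the genotype means correlated at -0.0772 for a, 0.238 for b and 0.247 for c. Libraries of different letters correlated at -0.402 (scl30a-1 b with WT c) to 0.233 (scl30a-1 a with WT c). Low counts limit COR15A, AT5G53260, DPBF2, NFYB9, LEC2 and the DREB1 genes.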
